A study of Mus musculus with 2 samples.

Results

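The 10 transcription factors described here are linked to the resting and long-lived state of T cells and were followed in RNA from regulatory T cells. They are Tcf7, Lef1, Satb1, Bach1, Bach2, Myb, Zeb1, Zeb2, Ets1 and Bcl11b, taken by gene symbol from the gene and transcript tables, and they make up 10 of the 55536 annotated genes. The cells were primary regulatory T cells of male mice aged 7 weeks which, by their labels, had experienced inflammation and derived from activated regulatory T cells. Such cells, a CD4 T cell subset defined by Foxp3, hold other immune cells in check. By the labels, 1 biological replicate was sequenced as 2 technical libraries of polyadenylated RNA, and cells of another condition were not analysed here. No comparison between conditions could therefore be made, and every SD below (n = 2) is the spread between 2 technical libraries, not between animals. The sort or genetic marking behind the word "experienced" is not given in the labels.

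Naive and memory T cells that can renew themselves keep a set of transcription factors on that effector cells tend to switch off. TCF-1 (from Tcf7) and LEF-1 share an HMG-box DNA-binding domain, can recruit beta-catenin as a coactivator or Groucho proteins as corepressors, and in regulatory T cells are known to support suppressive function. BACH2 competes with AP-1 factors at their sites and holds back effector programmes, ETS1 and BCL11B maintain T cell identity and share many bound regions with Foxp3, SATB1 folds chromatin and precedes Foxp3 in regulatory T cell development, and ZEB1 and ZEB2 are repressors that bind E-boxes and often act in opposition to each other.

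The choice between transcript forms decides which protein domains a factor carries, so the sequences at the alternative sites measured here are given first. The internal coding exons of Lef1 (84 bases, 28 codons, chr3:131191023-131191106, plus strand), Ets1 (261 bases, 87 codons, chr9:32738099-32738359, plus strand) and Bcl11b (216 bases, 72 codons, chr12:107965672-107965887, minus strand) each keep the reading frame when skipped. Each is shown from the GENCODE M21 transcripts (GRCm38, the mm10 build), 5′ to 3′, as the exon in capitals between 15 bases of each neighbouring exon, followed by the join that forms when it is skipped.
Lef1 with the exon: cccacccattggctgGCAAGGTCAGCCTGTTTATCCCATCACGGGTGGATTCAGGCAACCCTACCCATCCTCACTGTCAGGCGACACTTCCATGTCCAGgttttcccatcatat
Lef1 without the exon: cccacccattggctggttttcccatcatat
Ets1 with the exon: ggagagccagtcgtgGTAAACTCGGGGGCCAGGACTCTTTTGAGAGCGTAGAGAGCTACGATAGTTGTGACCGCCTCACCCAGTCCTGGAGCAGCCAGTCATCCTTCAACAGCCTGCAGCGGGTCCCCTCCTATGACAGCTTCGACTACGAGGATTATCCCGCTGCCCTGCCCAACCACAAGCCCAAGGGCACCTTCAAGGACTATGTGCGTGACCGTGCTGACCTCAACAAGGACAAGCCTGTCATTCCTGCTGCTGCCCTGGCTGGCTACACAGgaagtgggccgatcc
Ets1 without the exon: ggagagccagtcgtggaagtgggccgatcc
Bcl11b with the exon: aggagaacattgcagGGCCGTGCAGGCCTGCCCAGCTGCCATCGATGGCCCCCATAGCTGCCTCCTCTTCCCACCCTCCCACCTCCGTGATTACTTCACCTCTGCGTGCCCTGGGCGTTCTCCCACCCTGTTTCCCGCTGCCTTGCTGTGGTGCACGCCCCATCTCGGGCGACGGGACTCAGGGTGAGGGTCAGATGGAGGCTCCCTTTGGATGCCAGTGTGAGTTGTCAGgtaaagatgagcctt
Bcl11b without the exon: aggagaacattgcaggtaaagatgagcctt

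Lef1 also has a pair of separate starts, and in human LEF1 the start that lies in an intron is known to give a shorter protein without the beta-catenin-binding domain. In the mouse annotation the inner first exon (24 bases, Lef1-203) begins 2326 bases downstream of the upstream one (1208 bases, Lef1-201) and its coding sequence is 198 bases shorter, 993 against 1191 bases. The 250 bases before the RefSeq start nearest to each (GRCm38.p6, plus strand) are chr3:131112541-131112790 for Lef1-203 and chr3:131110073-131110322 for Lef1-201.
Lef1-203, inner start: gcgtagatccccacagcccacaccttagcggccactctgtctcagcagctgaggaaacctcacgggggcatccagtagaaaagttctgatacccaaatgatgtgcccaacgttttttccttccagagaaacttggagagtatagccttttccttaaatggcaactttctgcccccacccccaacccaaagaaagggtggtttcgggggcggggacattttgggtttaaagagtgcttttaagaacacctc
Lef1-201, upstream start: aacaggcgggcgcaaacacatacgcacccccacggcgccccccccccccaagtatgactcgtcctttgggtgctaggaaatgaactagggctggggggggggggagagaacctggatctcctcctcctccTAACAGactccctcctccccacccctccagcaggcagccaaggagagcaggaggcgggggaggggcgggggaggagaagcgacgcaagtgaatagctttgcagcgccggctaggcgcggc

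The inner window holds 50.8% G and C and 6 CpG dinucleotides, against 66.4% and 14 in the upstream window, where the median of the 32851 RefSeq windows used (the 250 bases before each start) is 52.4% and 6. Both strands were searched for CTTTGA (bound by TCF and LEF factors), CCGGAA (ETS), TAACNG (MYB), CACCTG (ZEB) and TGAGTCA (BACH and AP-1). The upstream window holds 1 match, to TAACNG, shown in capitals; 19.8% of all windows hold a match to those letters. The other motifs are found in 13.8% (CTTTGA), 12.03% (CCGGAA), 17.2% (CACCTG) and 4.46% (TGAGTCA) of all windows. The upstream window also overlaps an exon of the opposite-strand gene Gm43352. A match describes letters, not a bound site.

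All 10 factors were detected, which here means a TPM (transcript abundance corrected for length) of at least 1 in both libraries, as 13718 genes were. Their levels fell into 3 tiers. Tcf7, Ets1, Lef1, Satb1 and Bcl11b each exceeded 200 TPM and lay above the 95.6th percentile of detected genes, Bach2 and Zeb1 lay between 30 and 60 TPM, and Myb, Zeb2 and Bach1 lay below 10 TPM. The highest mean was 280 times the lowest.

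**Figure D1:**
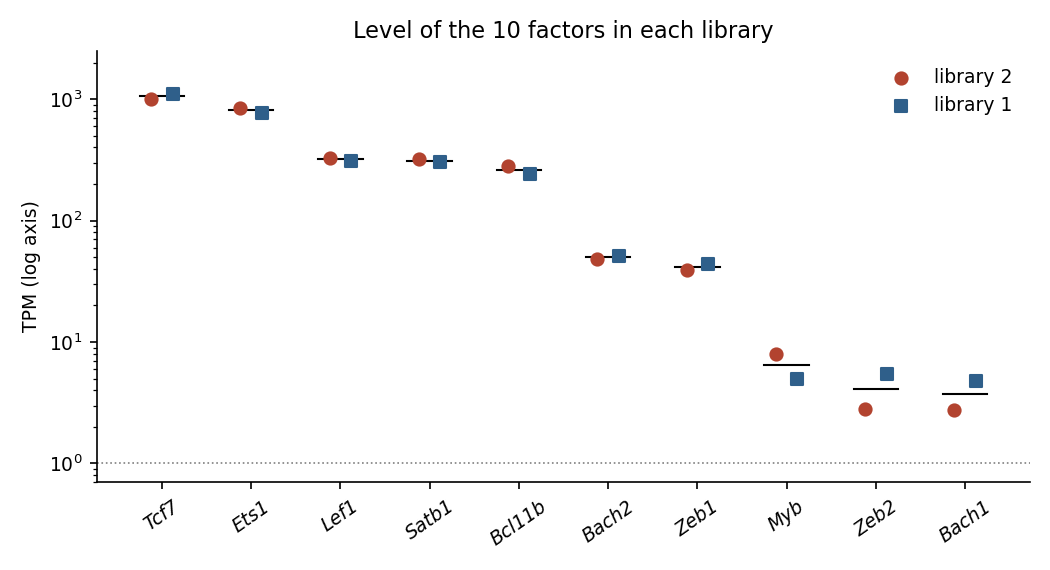
TPM of each factor on a log axis in library 2 (circles, left) and library 1 (squares, right), with a line at the mean and a dotted line at the detection level of 1 TPM. The 5 highest factors lie between 241 and 1107 TPM, Bach2 and Zeb1 between 39.2 and 51.6 TPM, and the 3 lowest between 2.78 and 8.04 TPM, where the libraries lie farthest apart.

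Of the HMG-box pair, Tcf7 (chr11:52252371-52283014, minus strand) had 999 TPM in library 2 and 1107 TPM in library 1, a mean of 1053 ± 75.9 TPM (SD, n = 2) and a percentile of 99.2 among detected genes. It was the highest of the 10 in both libraries. Lef1 (chr3:131110471-131224356, plus strand) had 328 TPM in library 2 and 310 TPM in library 1, a mean of 319 ± 12.9 TPM (SD, n = 2). Tcf7 thus stood at 3.04 times the TPM of Lef1 in library 2 and 3.57 times in library 1. In the second, smaller deposited table, whose counts are not corrected for length, Tcf7 had 1987 counts and Lef1 1939 in library 2, and 2031 and 2116 in library 1.

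ETS1, the founding member of the ETS family, came next by level. Ets1 (chr9:32636221-32757820, plus strand) had 844 TPM in library 2 and 769 TPM in library 1, a mean of 807 ± 53.3 TPM (SD, n = 2). Both Ets1 values were below both Tcf7 values and above both Lef1 values. By CPM (counts scaled to a common library total, with no correction for length) Ets1 was ahead of Tcf7, with 2267 in library 2 and 2107 in library 1, against 1384 and 1550 for Tcf7.

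The chromatin organiser Satb1 (chr17:51736187-51833290, minus strand) had 320 TPM in library 2 and 301 TPM in library 1, a mean of 311 ± 13.9 TPM (SD, n = 2). Bcl11b (chr12:107910403-108003602, minus strand), which encodes a zinc-finger factor needed for T lineage commitment, had 281 TPM in library 2 and 241 TPM in library 1, a mean of 261 ± 28.3 TPM (SD, n = 2). The ranges of Satb1 and Lef1 overlapped, so their order was not resolved, whereas both Bcl11b values lay below both Satb1 values.

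The basic leucine zipper factors BACH1 and BACH2 bind DNA together with small MAF proteins, and BACH1 is best known as a haem-regulated repressor of Hmox1. Bach2 (chr4:32238804-32586108, plus strand) had 48.4 TPM in library 2 and 51.6 TPM in library 1, a mean of 49.95 ± 2.26 TPM (SD, n = 2) and a percentile of 70.9. Bach1 (chr16:87698945-87733346, plus strand) had 2.78 TPM in library 2 and 4.75 TPM in library 1, a mean of 3.77 ± 1.39 TPM (SD, n = 2) and a percentile of 18.9. Bach2 was 17.4 times as abundant as Bach1 in library 2 and 10.9 times in library 1.

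The E-box repressors were also unequal. Zeb1 (chr18:5591860-5775467, plus strand) had 39.2 TPM in library 2 and 43.9 TPM in library 1, a mean of 41.5 ± 3.36 TPM (SD, n = 2). Zeb2 (chr2:44983632-45117395, minus strand), which in CD8 T cells is known to promote terminal effector differentiation, had 2.81 TPM in library 2 and 5.44 TPM in library 1, a mean of 4.13 ± 1.86 TPM (SD, n = 2). Zeb1 stood at 13.9 times Zeb2 in library 2 and 8.07 times in library 1.

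Myb (chr10:21124935-21160984, minus strand), which encodes the progenitor-associated factor c-MYB, had 8.04 TPM in library 2 and 4.93 TPM in library 1, a mean of 6.49 ± 2.20 TPM (SD, n = 2) and a percentile of 27.9. The ranges of Myb and Zeb2 overlapped, as did those of Zeb2 and Bach1. Of the 9 neighbouring pairs in the order of levels, 6 had ranges that did not overlap and 3 did.

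Markers of the labelled cell type were present. The T cell genes Cd3d, Cd3e, Cd3g, Cd4 and Lck summed to 4555 TPM in library 2 and 4581 TPM in library 1, and the regulatory T cell genes Foxp3, Il2ra, Ctla4, Ikzf2 and Tnfrsf18 to 759 and 784 TPM, with 5 of 5 detected in each list. Foxp3 itself had 87.4 TPM in library 2 and 87.3 TPM in library 1. Markers of other cells were seen too: 6 B cell markers summed to 115 TPM in library 2 and 157 TPM in library 1, 6 erythroid markers to 79.9 and 4867 TPM, 7 macrophage markers to 79.8 and 30.5 TPM, 5 natural killer (NK) cell markers to 313 and 192 TPM, 5 dendritic cell markers to 6.01 and 7.56 TPM, and 2 CD8 T cell markers to 13.5 and 27.0 TPM. Most of the NK cell sum lay in Nkg7, with 233 TPM in library 2 and 153 TPM in library 1, and Klrk1, with 72.2 and 32.1 TPM. Ncr1 had only 0.26 and 0 TPM. Of the 4 immature thymocyte markers, 0 reached 1 TPM in both libraries, but not all were absent. Dntt had 0.96 TPM in library 2 and 2.22 TPM in library 1, Ptcra 0.54 and 0.05 TPM, and Rag1 0.27 and 0 TPM. Rag2 was at 0 in both libraries. In bulk RNA, fewer cells of a type and less RNA per cell cannot be told apart.

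The libraries were compared with a 2-sided exact binomial test of the counts of each gene against the libraries' shares of all counts, 22036168 in library 2 and 26593141 in library 1, with Benjamini-Hochberg adjustment over 24253 genes. This test sets 2 technical libraries against counting error and says nothing about conditions. It called 4 of the 10 factors higher and 3 lower in library 2 at an adjusted p under 0.05, where 70.3% of all genes tested were called, 46.4% higher and 23.9% lower. By size, 2 of 10 factors differed by at least 1.5-fold, where 53.7% of all genes tested did, 39.2% higher and 14.5% lower. The share was 25.2% of genes at 1 TPM or more in both libraries, 53% of genes with 100 to 1000 counts and 8.57% of genes with over 1000 counts. The share of factors called was close to the background share, and the 2 factors past 1.5-fold have under 1000 counts.

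Myb and Zeb2 were the pair past 1.5-fold, in opposite directions. Myb had 341 counts in library 2 and 187 in library 1, or 15.5 and 7.03 CPM, a ratio of 2.20 (95% interval 1.84 to 2.64, adjusted p = 6.06e-18, exact binomial test). Zeb2 had 132 counts in library 2 and 308 in library 1, or 5.99 and 11.6 CPM, a ratio of 0.518 (95% interval 0.419 to 0.636, adjusted p = 2.60e-10, exact binomial test). Both kept their direction in the smaller table, called the small table from here on, in which Myb had 175 counts in library 2 and 101 in library 1 and Zeb2 had 85 and 159.

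Marker genes of other cell types also differed between these libraries, in both directions, where 46.4% of all genes tested were called higher and 23.9% lower in library 2. All 6 erythroid markers were called lower in library 2, among them Klf1 with 0.05 TPM in library 2 and 16.5 TPM in library 1, while Myb was higher in library 2. As Zeb2 was, 4 of 6 B cell markers, 2 of 2 CD8 T cell markers and 2 of the 4 dendritic cell markers tested were called lower in library 2. Among these lists, 1 B cell and 1 dendritic cell marker were called higher. While Zeb2 was lower in library 2, 6 of the 7 macrophage markers were called higher and Lyz2 lower, with C1qc at 14.2 TPM in library 2 and 0 in library 1. Of the 4 NK cell markers tested, 3 were called higher in library 2. Their part in the Myb and Zeb2 values was not tested.

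The other 8 factors differed by 1.5-fold or less by counts. Tcf7 had 30489 counts in library 2 and 41224 in library 1, a change of -0.16 on the log2 scale (exact binomial test, adjusted p = 1.30e-49), and Bach2 had 1711 and 2273 counts, a change of -0.14 (exact binomial test, adjusted p = 0.00464). Ets1, with 49960 counts in library 2 and 56032 in library 1, had a log2 ratio of 0.11. Satb1 had 0.08 and Bcl11b 0.13, from 14488 and 14998 counts in library 2 and 16540 and 16526 in library 1. Lef1 at 0.02, Zeb1 at -0.04 and Bach1 at -0.22 were not called, with adjusted p of 0.295, 0.461 and 0.276 in the exact binomial test. At these depths the test calls ratios that are far smaller than the 1.5-fold rule.

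Several of these small ratios turned on the scaling, while Tcf7 and Bach2 were called lower in library 2 with each scaling of the large table. With TMM scaling, which lowered the median log2 ratio of all genes tested to 0.14, against 0.23 with library totals, 2 factors were called higher in library 2 (Myb and Bcl11b) and 5 lower (Tcf7, Lef1, Bach2, Zeb1 and Zeb2), where 70.4% of genes were called, 41.1% higher and 29.4% lower. Lef1 and Satb1 then changed sign, to log2 ratios of -0.07 and -0.02, and with DESeq2 size factors Ets1 (-0.04) and Bcl11b (-0.01) did so too. In the small table Tcf7 had 1987 counts in library 2 and 2031 in library 1, a log2 ratio of 0.15, opposite in sign to the large table. Called in either direction were 8 factors with DESeq2 size factors, where 71.2% of genes were, and 8 in the small table, where 54.3% were. Bach1 differed by length rather than by reads: its CPM was 5.17 in library 2 and 6.02 in library 1, but its effective length as estimated by the authors was 3024 bases in library 2 and 2031 bases in library 1, so that its TPM was 1.71-fold lower in library 2.

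**Figure D2:**
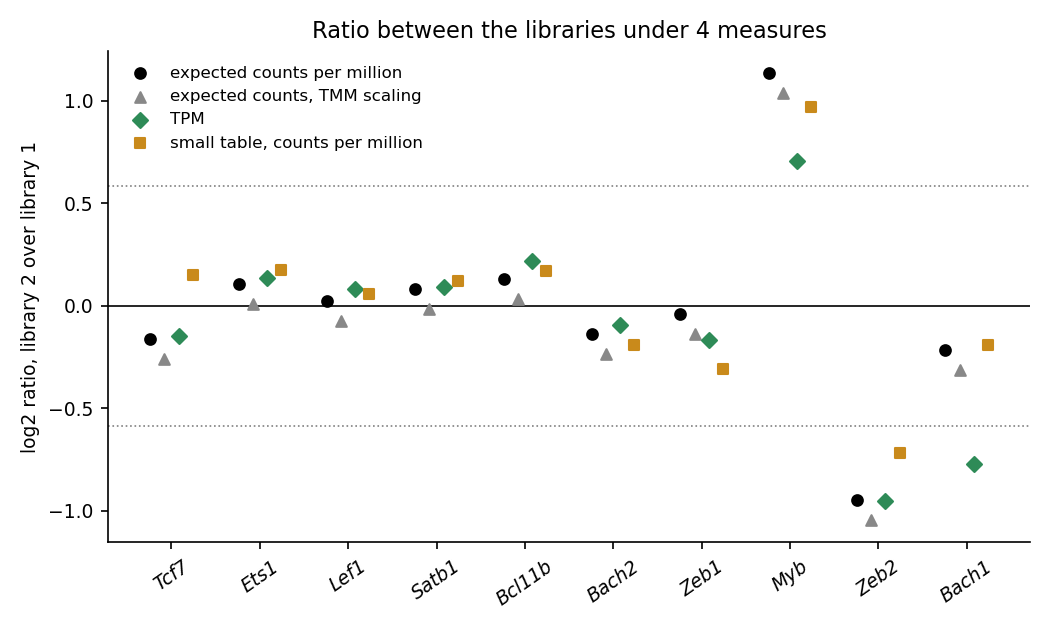
Log2 ratio of library 2 over library 1 for each factor by CPM of expected counts (circles), TMM scaling (triangles), TPM (diamonds) and the small table (squares), with dotted lines at 1.5-fold. Myb lies above and Zeb2 below the dotted lines by every measure, Bach1 passes the lower line by TPM only, and Tcf7 lies above 0 in the small table only.

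The transcript table lists 90 GENCODE transcripts of the 10 factors, 64 of them with a TPM above 0 in either library. The same transcript led by TPM in both libraries for 9 of 10 factors, and for 8 of 10 the leading transcript was protein-coding. Shares below are estimates from short reads, in percent of the gene's TPM unless counts are named.

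Lef1 was carried mainly by the inner start shown above. Lef1-203 made up 51.7% of Lef1 TPM in library 2 and 50.8% in library 1, with 5175 and 5885 counts whose posterior SDs, given by the authors, were 81.1 and 96.3 counts. All transcripts from the inner first exon together held 70.1% of Lef1 TPM in library 2 and 68.9% in library 1, or 63.5% and 61.1% of counts, against 25.04% and 27.8% of TPM from the upstream first exon. Of the inner group, the retained-intron transcript Lef1-206 held 17.9% in library 2 and 17.0% in library 1. Among protein-coding transcripts alone, the form with the shorter coding sequence held 67.3% in library 2 and 64.6% in library 1. The inner start was thus the larger share by TPM, by counts and among coding transcripts in both libraries.

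The 84-base Lef1 exon printed above was included in 94.6% of the TPM of transcripts that span it in library 2 and 93.1% in library 1. Its skipping was therefore a minor form in both libraries.

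Tcf7 has 2 transcripts in GENCODE M21, Tcf7-201 with 76.2% of TPM in library 2 and 75.7% in library 1, and Tcf7-202 with 23.8% and 24.3%. They differ in the first exon and the 3′ end and share a coding sequence of 909 bases. The long forms of TCF-1, which carry a beta-catenin-binding domain, are not told apart from the short forms by these 2 transcripts and were not analysed here.

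Ets1-201 held 79.8% of Ets1 TPM in library 2 and 80.8% in library 1. Ets1-202 skips the 261-base exon, which encodes part of the region that inhibits DNA binding by ETS1, and held 12.5% of the TPM of transcripts that span the site in library 2 and 11.5% in library 1. By counts the skipping share was 5.17% and 4.74%, because Ets1-202 is annotated with 1976 bases against 5080 for Ets1-201.

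Bcl11b-203, which lacks the 216-base exon, led with 79.0% of Bcl11b TPM in library 2 and 72.5% in library 1. Inclusion of that exon stood at 20.96% by TPM in library 2 and 24.9% in library 1, and at 43.0% and 48.7% by counts. The exon was in the smaller share by both measures, but how small depended on the annotated lengths, 8111 bases for Bcl11b-201 and 2888 for Bcl11b-203. The 366-base exon before it was included in 100% of Bcl11b TPM in library 2 and 97.4% in library 1.

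Satb1 transcripts began at several first exons that mostly precede one coding sequence of 2292 bases. The first exon of Satb1-204 held 52.5% of TPM in library 2 and 55.5% in library 1, that of Satb1-203 18.4% and 16.5%, that of Satb1-208 9.84% and 9.16%, and that of Satb1-211 6.36% and 5.32%. The Satb1-211 share includes Satb1-207, which has a coding sequence of 2385 bases and held 15.4 TPM in library 2 and 9.76 TPM in library 1. Transcripts with other starts held 12.8% of TPM in library 2 and 13.5% in library 1. The order of the named first exons by TPM was the same in both libraries. By counts, which follow annotated length, Satb1-208 held 18.3% in library 2 and 17.1% in library 1, ahead of the Satb1-203 start with 16.6% and 15.1%.

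Myb-203 includes a 357-base coding exon (119 codons, chr10:21144969-21145325) that gives a longer form of c-MYB, and inclusion stood at 56.0% in library 2 and 60.1% in library 1. The 2 forms were thus of similar abundance, on 176 counts for Myb-203 in library 2 and 117 in library 1. Myb-205, an unspliced retained-intron transcript, had 50.7 counts in library 2 and 3.09 in library 1.

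**Figure D3:**
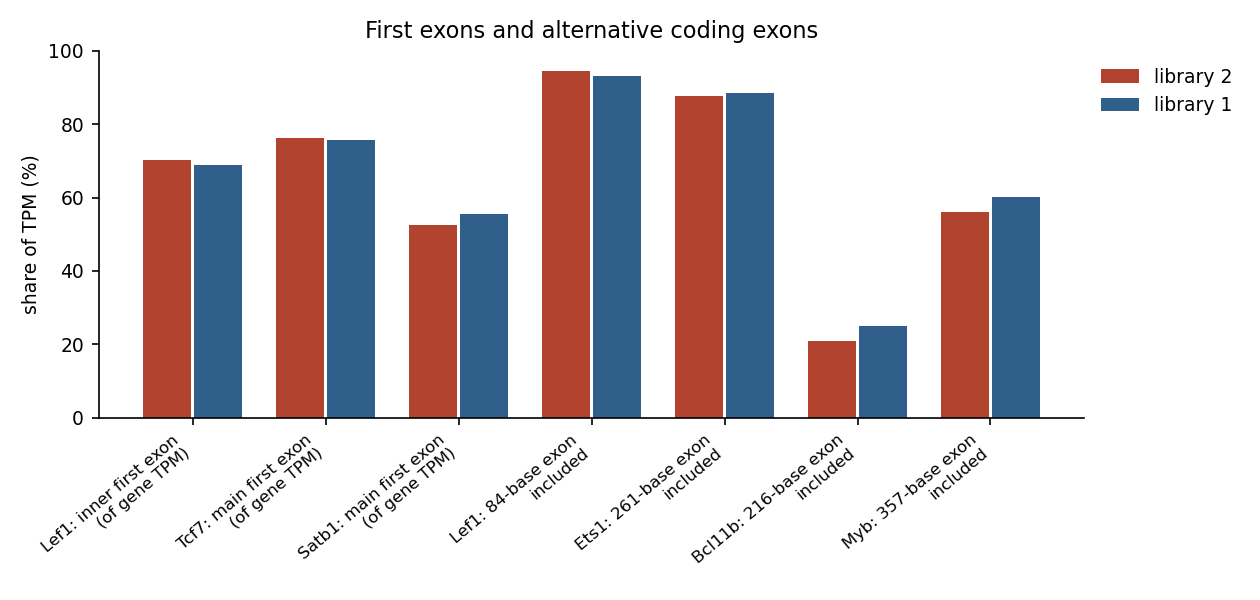
Share of TPM (percent) in library 2 (left bars) and library 1 (right bars) for the main first exon of Lef1, Tcf7 and Satb1, as a share of the gene, and for inclusion of 4 coding exons, as a share of the transcripts that span them. The libraries differ by at most about 4 percentage points at each site, while the sites range between 20.96% (Bcl11b exon) and 94.6% (Lef1 exon) in library 2.

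The part of each factor that lies in protein-coding transcripts varied widely. Tcf7 and Bcl11b had 100% of TPM in such transcripts in both libraries, Satb1 91.7% in library 2 and 92.8% in library 1, Ets1 91.2% and 91.3%, and Lef1 76.7% and 78.7%. Over 10818 detected protein-coding genes the median was 84.9% in library 2 and 87.3% in library 1. Zeb1 had 33.2% in library 2 and 33.6% in library 1 and Bach1 23.7% and 14.3%, the lowest shares of the 10, and in both the transcript with the highest TPM was a retained intron.

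For Bach1 the leading transcript, Bach1-203, held 76.4% of TPM in library 2 and 46.6% in library 1, on 62.2 and 79.3 counts. The protein-coding Bach1-201 had 0.66 TPM in library 2 and 0.68 TPM in library 1. A short noncoding transcript, Bach1-202, was given 0 counts in library 2 and 15.3 counts in library 1, which made up 39.1% of Bach1 TPM in library 1. The difference of Bach1 TPM between the libraries thus lay in Bach1-202 and not in the coding transcript.

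Zeb1-204, a retained-intron transcript of 1938 bases, held 39.2% of Zeb1 TPM in library 2 and 25.9% in library 1. By counts the protein-coding Zeb1-201 led, with 888 counts in library 2 and 1039 in library 1, and 58.6% and 56.9% of counts lay in coding transcripts. Bach2 had 61.7% of TPM in coding transcripts in library 2 and 61.5% in library 1, but 94.1% and 93.7% of counts; its 336-base transcript Bach2-205 held 21.8% and 18.1% of TPM on 41.0 and 44.4 counts. Its main coding transcript, Bach2-201, held 55.2% in library 2 and 54.2% in library 1.

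For Zeb2 the transcript estimates did not hold between libraries. Zeb2-201 led with 45.2% of TPM in library 2 but had 7.44% in library 1, where Zeb2-202 led with 25.1% and had 0 in library 2. The counts behind these shares were 91.2 for Zeb2-201 in library 2 and 35.5 in library 1, with posterior SDs of 18.9 and 29.9 counts.

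**Figure D4:**
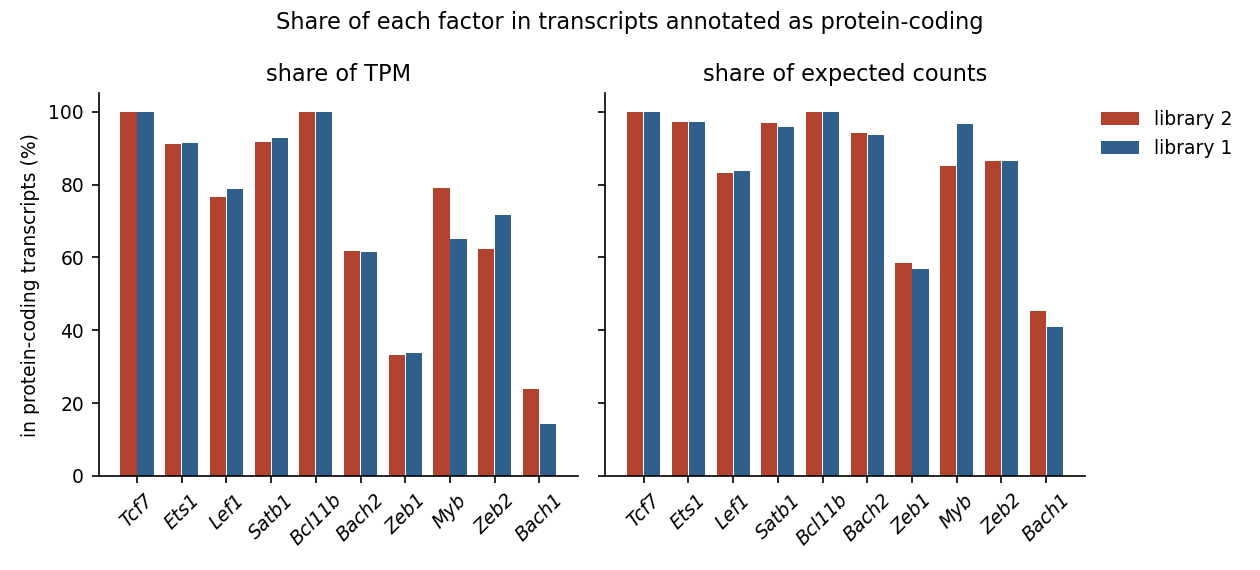
Percent of each factor in transcripts annotated as protein-coding, by TPM (left panel) and by expected counts (right panel), in library 2 (left bars) and library 1 (right bars). Bach1 and Zeb1 are lowest in both panels, and Bach2 stands at about 62% by TPM and 94% by counts.

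Restricting the pairs to protein-coding transcripts changed their balance. Bach2 stood at 45.2 times Bach1 in library 2 and 46.6 times in library 1, and Zeb1 at 7.43 times Zeb2 in library 2 and 3.79 times in library 1. Tcf7 stood at 3.97 times Lef1 in library 2 and 4.54 times in library 1. In each pair the same member was the more abundant by both measures in both libraries.

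The summed level of close relatives was far below that of the factors, although Ets2 exceeded Myb, Zeb2 and Bach1. Of 7 paralogues, 3 were detected: Ets2 with 25.4 TPM in library 2 and 23.2 TPM in library 1, Mybl2 with 4.87 and 7.96 TPM, and Bcl11a with 3.09 and 6.14 TPM. Tcf7l2 had 3.06 TPM in library 2 and 0.90 TPM in library 1, Tcf7l1 0.54 and 0.77 TPM, and Mybl1 0.35 and 0.14 TPM. The sum of the 7 was 37.6 TPM in library 2 and 39.1 TPM in library 1, against 2875 and 2838 TPM for the 10 factors. Mybl2, which serves the cell cycle, exceeded its relative Myb in library 1, with 7.96 against 4.93 TPM, and not in library 2, with 4.87 against 8.04 TPM. Between libraries 2 of the 7 were called higher and 2 lower in library 2, beside 46.4% and 23.9% of all genes tested.

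Cofactors were present throughout. All 17 partner genes were detected, with a median of 34.4 TPM, led by Aes, a short Groucho-family protein, with 965 TPM in library 2 and 940 TPM in library 1. Mta2 of the NuRD complex had 225 TPM in library 2 and 230 TPM in library 1, the corepressor Ctbp1 221 and 268 TPM, and Ctnnb1, which encodes beta-catenin, 167 and 133 TPM. In the exact binomial test 4 of the 17 were called higher and 6 lower in library 2, beside 46.4% and 23.9% of all genes tested. Their median log2 ratio was -0.06, where that of all genes tested was 0.23 and that of detected genes 0.008.

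Genes of the resting, recirculating state were abundant. All 10 on the list were detected, with a median of 336 TPM. The homing receptor gene Ccr7 had 459 TPM in library 2 and 464 TPM in library 1, Klf2, a regulator of T cell trafficking genes, 563 and 443 TPM, and Slamf6, a surface marker of TCF-1-positive cells, 382 and 427 TPM. Between libraries 4 were called higher and 4 lower in library 2, beside 46.4% and 23.9% of all genes tested. The list's median log2 ratio was -0.02, where that of all genes tested was 0.23 and that of detected genes 0.008.

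Effector-associated regulators were also all detected, 10 of 10, at a median of 22.6 TPM. Id2 was highest in both libraries, with 805 TPM in library 2 and 544 TPM in library 1. By the mean of the libraries it was followed by Batf with 107 and 182 TPM, Gata3 with 124 and 106 TPM and Maf with 32.9 and 30.1 TPM; in library 2 alone Gata3 exceeded Batf and Tbx21 exceeded Maf. Of the 10, 7 were called higher and 2 lower in library 2, beside 46.4% and 23.9% of all genes tested. The list's median log2 ratio was 0.60, where that of all genes tested was 0.23 and that of detected genes 0.008. Tbx21, the T-bet gene, had 40.8 TPM in library 2 and 10.3 TPM in library 1, Klrg1 27.5 and 8.52 TPM, and the granzyme gene Gzmb 3.99 and 1.78 TPM. These genes are also expressed by NK cells, whose marker Klrk1 had 72.2 TPM in library 2 and 32.1 TPM in library 1 while Ncr1, which defines NK cells, had 0.26 and 0 TPM. The part of such cells in the difference was not tested.

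Known targets of BACH1 and BACH2 in haem, iron and redox metabolism were mixed. The ferritin genes Fth1 and Ftl1 stood at 1978 and 1837 TPM in library 2 and at 1978 and 1819 TPM in library 1. Gclm had 88.4 TPM in library 2 and 109 TPM in library 1, and Txnrd1 62.5 and 59.0 TPM. Hmox1, the haem oxygenase gene, had 32.7 TPM in library 2 and 8.21 TPM in library 1 (log2 ratio 1.95). Of the 7 macrophage markers, 6 were called higher in library 2, among them Vcam1 with 17.8 and 0.75 TPM. Lyz2, with 3.72 and 23.8 TPM, was called lower. The part of macrophages in the Hmox1 values was not tested. Slc7a11 had 2.81 and 1.25 TPM, Me1 1.06 and 0.06 TPM, and Nqo1 0.25 and 2.04 TPM in library 2 and library 1. Of the 9 genes, 7 were detected, and 3 were called higher and 3 lower in library 2, beside 46.4% and 23.9% of all genes tested.

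Epithelial genes that ZEB factors are known to repress in carcinoma cells were low. The median of the 5 was 2.57 TPM. Epcam had 5.43 TPM in library 2 and 9.84 TPM in library 1, Crb3 5.18 and 2.04 TPM, Esrp2 3.57 and 1.56 TPM, Esrp1 2.44 and 0.35 TPM, and the E-cadherin gene Cdh1 1.85 and 2.37 TPM. Of the 5, 3 were called higher and 1 lower in library 2, beside 46.4% and 23.9% of all genes tested.

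The second deposited gene table gave a different order at the top. It holds whole-number counts on an older annotation, GENCODE M4, and totals 6972139 in library 2 and 7911181 in library 1. Its counts were 6.52% (library 2) and 4.93% (library 1) of the large-table counts for Tcf7 and 5.73% and 5.14% for Ets1, against 28.6% and 26.2% for Bcl11b and 27.0% and 24.7% for Satb1. Lef1 lay between, at 17.9% in library 2 and 16.5% in library 1. The 5 lower factors lay between 43.3% and 71.1% in both libraries. Over genes with at least 10 large-table counts the median was 47.1% in library 2 and 45.9% in library 1, with upper quartiles of 66.9% and 64.5%. Bach1, at 71.1% and 65.6%, lay above these in both libraries. Among genes of its own range, 100 to 1000 large-table counts, the upper quartiles were 67.4% and 68.9%, and Bach1 passed only that of library 2.

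By CPM of the small table Bcl11b led the 10, followed in order by Satb1, Ets1, Lef1 and Tcf7, while the order of the other 5 was the same as by TPM. Genes with at least 10000 large-table counts had a median share of 12.1% in library 2 and 12.6% in library 1, so low shares were common among abundant genes. Their quartiles were 4.70% and 21.8% in library 2 and 4.45% and 22.4% in library 1. Tcf7, Ets1 and Lef1 lay within these quartiles, and Satb1 and Bcl11b above them. How the small counts were made is not stated, and what lowers the share was not tested. The 5 high factors ranked above the 5 lower ones by CPM in both tables, but the step between them was less clear in the small table. By the mean of the libraries, Lef1 had 487 CPM and Bach2 81.6 CPM in the large table. In the small table the high factors ran from 581 (Bcl11b) to 271 CPM (Tcf7), against 149 for Bach2, 107 for Zeb1 and 18.9 for Myb.

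**Figure D5:**
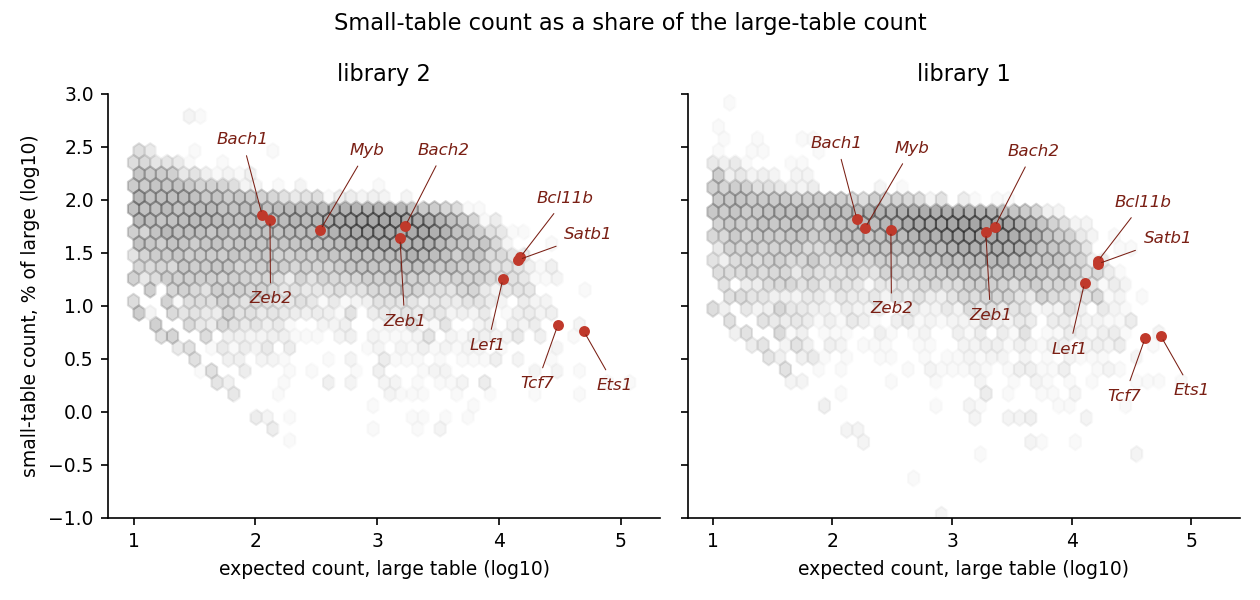
Small-table count as a percent of the large-table count (log10) against the large-table count (log10) in library 2 (left) and library 1 (right). Grey cells show all genes with at least 10 large-table counts and at least 1 small-table count, and red points the 10 factors; Tcf7 and Ets1, farthest right, lie lowest, and Bach1, farthest left, highest.

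Genes that overlap a factor could share reads with it, since strand use is not stated. For 8 of the 10 factors the annotation holds an overlapping gene, always including an opposite-strand one. The highest was C230085N15Rik within Satb1, on the same strand, with 33.2 TPM in library 2 and 31.3 TPM in library 1. Bach2os, antisense to Bach2, had 4.35 TPM in library 2 and 2.10 TPM in library 1, and Zeb2os, antisense to Zeb2, 0.31 and 0 TPM.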

How the data were processed

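Per the deposited descriptions, the authors made a large gene table and a transcript table for each library from transcriptome alignments on mm10 with GENCODE M21. Expected counts, as deposited, are estimates that divide reads shared between genes. The authors scaled TPM by effective length to a common sum; their FPKM, per the file headers, also uses effective length. Each transcript's percent of its gene and each count's posterior SD were deposited too. Deposited whole-number counts of the small table come from an mm10 alignment with GENCODE M4. Aligner and quantifier: not given in the sources used here.

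Members were matched by GENCODE M21 symbol, and the large table's GENCODE genes made up the totals. Expected counts were rounded, genes with at least 10 counts over both libraries were tested, and 0.5 counts were added before ratios. Library totals of 22036168 and 26593141 set the precision, and tests and intervals (95%) cover counting error only. With 1 group of 2 technical libraries, edgeR's replicated test could not be used, so edgeR 4.0.16 gave TMM factors only, and DESeq2 1.42.0 (R 4.3.3) size factors only. The exact binomial test was also run on libraries simulated with counting error alone, with changed genes drawn from those with at least 100 counts. It called 85 of 100 genes changed 1.5-fold, 90 of 100 changed 2-fold and 9 of 24010 unchanged genes, of 24210 tested. The simulation held no further spread between libraries, so these rates do not carry over to the 2 technical libraries. Alternatives were other scalings and pseudocounts, no count filter, other thresholds, FPKM, the small table, coding transcripts alone and each library alone; a share of counts in place of TPM was added after seeing the data. Sequences came from GENCODE M21 transcripts and, for the 2 Lef1 starts, the RefSeq promoter table, with Python 3.11.15.

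The members and gene lists were chosen with earlier results of these data known. All 10 members are named. From each related list the text names up to 4 genes with the highest TPM, up to 4 under 1 TPM in a library, and up to 4 at least 1.5-fold apart with at least 100 counts. Marker genes and overlapping genes outside that rule were chosen after their values were seen. Some genes of these lists are counted but not reported by name here.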

Additional observations from a re-analysis of the deposited data

How the results depend on the processing

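No paired analysis was possible because the 2 libraries form 1 group. Detection was 10 of 10 factors at a TPM threshold of 0.1 and 7 of 10 at 5. The share of all genes detected at these thresholds is not given here, so these counts have no background beside them. The number called between libraries was 7 with library totals (70.3% of all genes) and 7 with TMM scaling (70.4%), but the factors differed. With TMM scaling Lef1 and Zeb1 were called, while Satb1 and Ets1 were not. The number was 8 with DESeq2 size factors (71.2% of all genes) and in the small table (54.3%). At a 2-fold rule with library totals 1 factor, Myb, stood apart in place of 2. Which factors passed depended on the scaling. Log2 ratios of Myb and Zeb2 were 1.04 and -1.04 with TMM scaling, and 0.99 and -1.09 with DESeq2 size factors. The share of all genes past 2-fold was not computed, so counts at this rule cannot be read against a background. The median percentile of the factors, 83.3, was 81.4 by FPKM and 85.3 to 87.9 with each library alone. The median leading share, 54.4%, was 75.8% among protein-coding transcripts and 52.5% to 53.9% with each library alone. With protein-coding transcripts Tcf7 over Lef1 was 4.25 in place of 3.31, Bach1 over Bach2 0.0218 in place of 0.0748, and Zeb1 over Zeb2 5.61 in place of 11.01; single libraries gave 3.04 to 3.57, 0.0575 to 0.0921 and 8.07 to 13.9. Log2 ratios changed sign for Tcf7 in the small table (0.15), for Lef1 (-0.0747) and Satb1 (-0.0166) with TMM scaling, and for Lef1 (-0.12), Satb1 (-0.0648), Ets1 (-0.0392) and Bcl11b (-0.0137) with DESeq2 size factors. List medians changed sign for the paralogues (-0.0738 with TMM scaling, -0.24 in the small table), the resting genes (0.12 in the small table) and the BACH targets (-0.0827 with TMM scaling). Scaling shifts all ratios together: the median over all genes tested was 0.23 with library totals, 0.14 with TMM and 0.09 with DESeq2 size factors. The cause of the other changes was not tested. With 1 biological replicate no value here speaks for the spread between animals, and ratios of Myb, Zeb2 and Bach1 rest on 114 to 341 counts a library.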
